A study of Mus musculus with 16 samples.

Results

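TRAV14 is the gene family of the T cell receptor (TCR) α chains known as Vα2. Its rearrangements were followed in CD8 T cells of C57BL/6 Themis+/+Foxp3-GFP and Themis-/-Foxp3-GFP mice, as single positive CD8 thymocytes and as lymph node (LN) CD8 T cells. Both genotypes carried the Foxp3-GFP reporter, and the Themis deletion was germline, so every cell type of the Themis-/- mice lacked the gene. The series holds 16 libraries, and the 8 made from all CD8 cells, 2 in each of the 4 combinations of genotype and tissue, are described here. The other 8 came from cells sorted for Vα3.2, and the sources used here state no ages. LN cells were pooled from several mice of a genotype, and the labels do not say whether libraries of the same number came from the same mice, so the spread between libraries may be partly technical.

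A rearrangement was counted as TRAV14 when the first V hit of its clonotype was a segment whose name starts with TRAV14, with or without a D, N or DV suffix. In the 8 unsorted libraries these were 9 of 117 V segments. They accounted for 8610 of 78671 distinct CDR3 nucleotide sequences and for 88617 of 815759 reads, or 10.9% of the reads. A sequence here is a distinct CDR3 nucleotide sequence in a library, where CDR3 is the loop that spans the V to J junction and contacts the peptide. The libraries held 57455 to 146191 reads, of which 5007 to 15115 were TRAV14 reads. No molecular identifiers are described, so reads are not independent molecules and counting intervals leave out the error of amplification. Themis itself and the CD8 genes are not measured in TCRα amplicons, so the genotype and cell labels could not be checked from transcripts. The invariant TRAV11-TRAJ18 chain of NKT cells made up at most 0.419% of the reads of a library, the TRAV1-TRAJ33 chain of MAIT cells at most 0.0424%, and TRDV segments 0.193% to 1.86%.

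Each α chain is assembled in the thymus by joining 1 V segment to 1 J segment. The V segment encodes the CDR1 and CDR2 loops and the start of CDR3, the J segment encodes its end, and terminal transferase can add bases between them that neither germline segment encodes. Rearrangement usually begins with J segments near the V segments, which carry the high TRAJ numbers, and can be repeated toward the low TRAJ numbers until the cell is selected or dies. The mouse Tcra locus carries duplicated blocks of V segments, whose copies are marked by the suffixes D and N. Vα2 is a common V family of mouse CD8 T cells and is the α chain of the OT-I receptor. Themis is a T lineage protein that tunes TCR signals during thymic selection.

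In the GENCODE annotation of GRCm38 the 9 segments are TR_V genes on the plus strand of chromosome 14, each with a coding exon that ends at the recombination site. The D copies were annotated at chr14:52855614-52856166 (TRAV14D-1), chr14:52948568-52949169 (TRAV14D-2) and chr14:53078452-53079045 (TRAV14D-3-DV8, which can also join δ chain segments). The N copies followed at chr14:53166626-53167178 (TRAV14N-1), chr14:53259578-53260179 (TRAV14N-2) and chr14:53370077-53370575 (TRAV14N-3). The copies without a suffix lay nearest to the J segments, at chr14:53554022-53554558 (TRAV14-1), chr14:53640701-53641225 (TRAV14-2) and chr14:53763173-53763694 (TRAV14-3). The clonotype tables carry no coordinates.

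The stretch in which the members differ most is shown first, because their likeness limits every statement on single members. Over the 260 germline bases before the CDR3, 33 positions differed among the 9 members. The 30 bases with the most differing positions (9) end 130 bases before the first cysteine codon of CDR3. They do not separate every member: TRAV14N-3 and TRAV14-3 are alike there but had 5 mismatches over the 260 bases. Capitals mark bases that differ from the most common base of the 9 members.
TRAV14D-1: cagcagttccctggggaaggccctgcactc
TRAV14N-1: cagcagttccctggggaaggccctgcactc
TRAV14D-2: TGgcagttccctAgggaaAgccctgcactc
TRAV14N-2: TGgcagttccctAgggaaAgccctgcactc
TRAV14D-3-DV8: cagcagttccctggggaaggTccCgcTctc
TRAV14N-3: cagcagttccctggggaaggccctgcTctc
TRAV14-1: caAcagttccctggggaaggccctgcactT
TRAV14-2: caTcagttccctggggaaAgccctgcactc
TRAV14-3: cagcagttccctggggaaggccctgcTctc

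TRAV14D-1 and TRAV14N-1 had 0 mismatches over the 260 bases, as did TRAV14D-2 and TRAV14N-2, while every other pair of members had 5 to 20 mismatches. All 9 members also shared the same germline bases inside CDR3, tgtgcagcaagtg, 13 bases from the cysteine codon to the end of the segment. Accordingly 2268 of the 8610 sequences (26.3%) had several equally good V hits, all within the family. Of these, 1129 were ties of TRAV14D-2 with TRAV14N-2 and 1117 were ties of TRAV14D-1 with TRAV14N-1. Every sequence listed first as TRAV14D-1 or TRAV14D-2 was such a tie, and no sequence listed first as TRAV14N-1 or TRAV14N-2 was. Of 751 sequences found in more than 1 library, 91 (12.1%) had the same first member in each of them. A sequence is defined by its CDR3, whose germline V bases all members share, so different members can give the same sequence. This share therefore does not measure how reliably members were assigned. Over the bases compared here the members of an identical pair cannot be told apart. Their levels are therefore given as levels of a name from the authors' alignment. That alignment still gave all 1178 TRAV14N-1 and all 743 TRAV14N-2 sequences a single best hit, and the basis of this was not tested.

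The family took a like share of reads in all 4 groups, and no difference was found between genotypes or tissues beyond the spread between libraries. The share was 11.3% and 11.5% in the Themis+/+ thymus libraries and 10.3% and 11.7% in the Themis-/- thymus libraries. In the LN it was 11.8% and 8.71% for Themis+/+ and 8.77% and 10.98% for Themis-/- mice. In each of the 4 comparisons the ranges of the groups overlapped, with 1 Themis+/+ LN library above and 1 below the narrow range of the Themis+/+ thymus libraries. By reads the family ranked 3rd to 5th of 26 in a library, below both TRAV12 and TRAV6, which made up 16.98% to 20.9% and 13.1% to 18.5% of the reads. The log2 fold change of the family between Themis-/- and Themis+/+ was -0.09 ± 0.19 (SE; 95% interval -0.46 to 0.27) in the LN and 0.00 ± 0.19 (-0.37 to 0.37) in the thymus. Between LN and thymus it was -0.08 ± 0.19 (-0.45 to 0.29) in Themis+/+ and -0.17 ± 0.19 (-0.54 to 0.20) in Themis-/- mice. In edgeR's quasi-likelihood test the adjusted p of these 4 comparisons were 0.828, 0.994, 0.894 and 0.635. Leaving out 1 library turned the direction in each comparison, as for the genotypes in the LN without library 1 of either genotype (0.13 and 0.10). The share of all V families called was 4.35% in the LN comparison of the genotypes and 0% in the other 3. With distinct sequences counted in place of reads the family values were -0.07, 0.03, -0.08 and -0.19, while 14.3%, 9.52%, 0% and 4.76% of the families were called.

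By the name of the first hit, TRAV14N-1 took the most reads, with 21.6% ± 5.99 of TRAV14 reads (SD, n = 8 libraries, 12.95% to 31.2%). TRAV14-3, the segment nearest to the J segments, followed with 15.8% ± 2.96, and TRAV14N-2 with 15.0% ± 3.78. TRAV14D-2 held 11.02% ± 1.95, TRAV14-2 9.44% ± 2.71, TRAV14-1 9.21% ± 2.61, TRAV14D-1 7.84% ± 1.98 and TRAV14N-3 6.60% ± 1.88. TRAV14D-3-DV8 was the lowest, at 3.49% ± 1.29. The ranges of TRAV14N-1 and TRAV14-3 over the libraries overlapped, as did those of each further pair of neighbours in this order. The sequence counts gave a flatter order, with 14.8% of TRAV14 sequences for TRAV14-3 and 13.4% for TRAV14N-1. TRAV14N-1 and TRAV14N-2 had 17.3 and 18.9 reads per sequence and the others 6.35 to 11.96. Among these others, TRAV14D-1 and TRAV14D-2, with the same bases as TRAV14N-1 and TRAV14N-2, had 6.78 and 9.21. These 4 form 2 identical pairs over the bases compared, so their rank and reads per sequence are those of names given by the alignment.

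**Figure D1:**
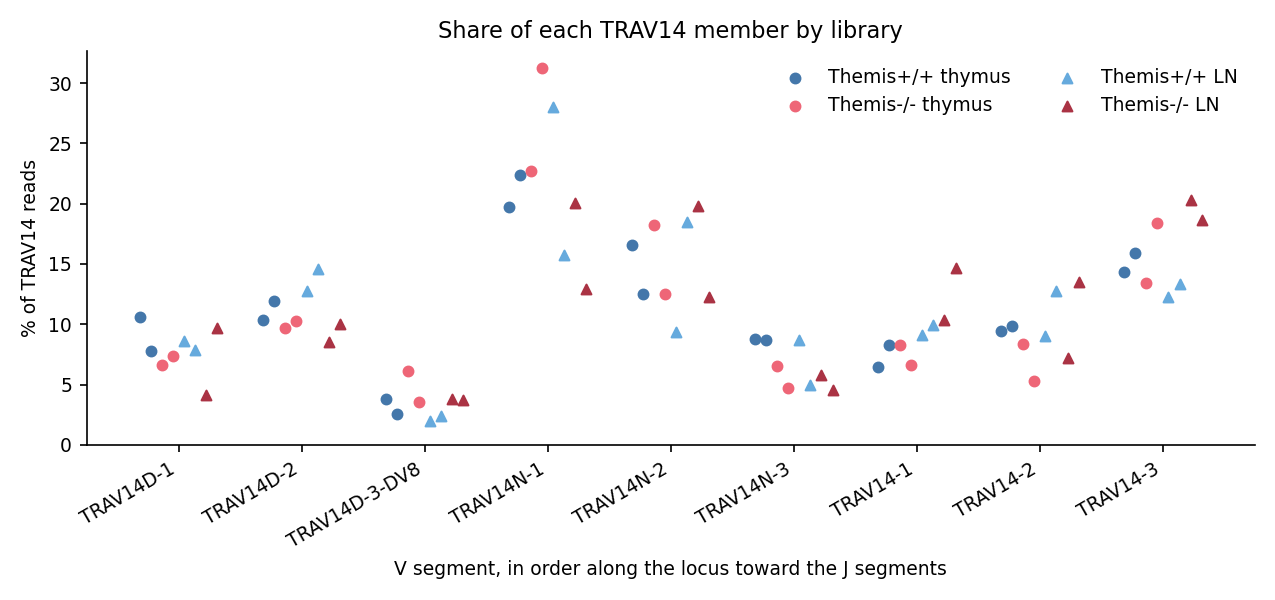
Share of TRAV14 reads (vertical axis, %) that each of the 9 members took in each of the 8 unsorted libraries, with members ordered along the locus. Each point is a library, circles are thymus and triangles LN. TRAV14N-1 spreads from 12.95% to 31.2% over the libraries, and TRAV14D-3-DV8 is the lowest on average, at 3.49%.

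No member passed the test in any comparison. Of the 9 members, 0 were called between genotypes in the LN, where 1.75% of the 114 V segments tested were called, and 0 in the thymus, where 0% were. Between LN and thymus 0 of 9 were called in Themis+/+ mice, against 0% of all segments, and 0 of 9 in Themis-/- mice, against 2.63%. For the difference of the genotype effect between tissues 0 of 9 were called, against 0.877%. At an unadjusted p under 0.05 edgeR gave 0, 0, 0, 1 and 0 members in these 5 tests, against 20, 8, 0, 18 and 6 of the 114 segments. DESeq2 gave 1, 0, 0, 2 and 0 members, with its counts over all segments not given here, and also called no member after adjustment. With distinct sequences counted in place of reads 0 of 9 members were called in each test, where 8.33%, 2.78%, 0%, 4.63% and 0.926% of the V segments were. The member log2 fold changes ran from -0.61 to 0.71 between genotypes in the LN and from -0.60 to 0.66 in the thymus, with standard errors of 0.35 to 0.63, so changes of about that size could not be told from the spread at this number of libraries. By share of all reads, the genotypes did not overlap for 3 of 9 members in the LN (TRAV14-3 and TRAV14D-3-DV8 higher and TRAV14D-2 lower in Themis-/- mice), where 44.7% of the V segments did not overlap. In the thymus this held for 3 of 9 (TRAV14-2, TRAV14D-1 and TRAV14N-3, all lower in Themis-/- mice), against 45.6% of the segments. Between tissues it held for 2 of 9 members in Themis+/+ and 4 of 9 in Themis-/- mice, against 29.8% and 44.7%.

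The lowest p belonged to TRAV14N-1 in the LN against the thymus of Themis-/- mice. Its share of all reads was 2.35% and 3.66% in the thymus libraries and 1.76% and 1.42% in the LN libraries of these mice, so the tissues did not overlap. The log2 fold change was -0.87 ± 0.36 (SE), with an unadjusted p of 0.0187 and an adjusted p of 0.176 by edgeR. It was -0.31 with distinct sequences counted in place of reads and -0.58 without the Themis-/- LN library 2. Joined with TRAV14D-1, whose germline bases are the same, the value was -0.67 ± 0.31 with an adjusted p of 0.247 by edgeR, an alternative chosen after seeing the data. In Themis+/+ mice the same segment was at 2.22% and 2.58% in the thymus and at 3.30% and 1.37% in the LN, and the test of the difference between genotypes gave a log2 value of -0.95 ± 0.50 with an adjusted p of 0.765. Without the Themis+/+ LN library 1 this difference turned to 0.0366.

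TRAJ22 was the J segment joined most often to TRAV14, at 2.31 times its mean share among other V segments. TRAJ22 made up 13.3% and 13.6% of TRAV14 reads in the Themis+/+ thymus libraries and 14.9% and 12.3% in the Themis-/- thymus libraries. In the LN it made up 15.8% and 12.9% for Themis+/+ and 33.7% and 17.7% for Themis-/- mice, so that library 1 of the latter stood far above the rest. In the other V segments it made up 6.41% to 7.86% of the reads of a library, so TRAV14 was higher in 8 of 8 libraries. By reads TRAJ22 was the only one of 44 J segments (2.27%) for which this held, and no J segment was lower in all 8. With each sequence counted once TRAJ22 made up 7.43% of TRAV14 and 5.26% of other sequences and was higher in 7 of 8 libraries. In this count TRAJ21, at 4.97% against 4.30%, was higher in 8 of 8, and TRAJ34, at 1.72% against 3.05%, in 0 of 8. The next partners were TRAJ26 with 5.15% ± 1.65 of TRAV14 reads, TRAJ21 with 3.94% ± 1.102, TRAJ30 with 3.87% ± 1.52 and TRAJ23 with 3.85% ± 0.848 (SD, n = 8), and each of these was above the other V segments in 2 to 4 of 8 libraries.

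**Figure D2:**
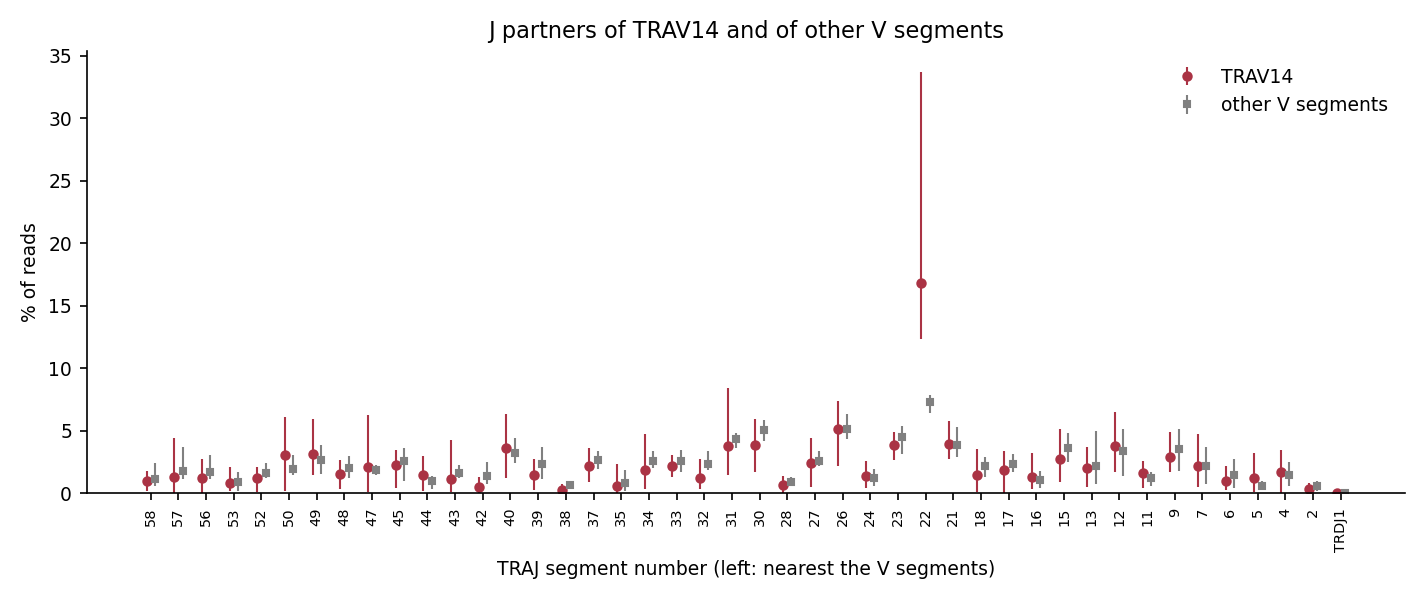
Share of reads (vertical axis, %) joined to each J segment for TRAV14 (circles) and for all other V segments (squares). Points are means of the 8 unsorted libraries and lines run from the lowest to the highest library. TRAJ22 is the J segment whose lines do not overlap, with TRAV14 at 12.3% to 33.7% and the other V segments at 6.41% to 7.86%.

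Most of the TRAJ22 excess lay in 2 CDR3s that were read in every library. Only 3 TRAV14 amino acid CDR3s of 5361 occurred in all 8 libraries, and 4408 (82.2%) occurred in 1. The most abundant nucleotide sequence of each of the 3 follows, together with the largest TRAV14 sequence of the Themis+/+ LN library 1, which was found in that library only. Capitals mark bases that do not match the germline V or J segment.
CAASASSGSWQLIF, with TRAJ22: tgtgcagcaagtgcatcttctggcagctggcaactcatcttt
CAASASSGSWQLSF, with TRAJ22: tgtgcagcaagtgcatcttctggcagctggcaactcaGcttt
Public CDR3 with TRAJ12: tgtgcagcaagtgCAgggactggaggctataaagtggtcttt
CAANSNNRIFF, with TRAJ31: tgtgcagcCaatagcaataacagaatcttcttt

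The first of these is wholly germline, with 13 bases of the untrimmed V segment followed by 29 bases of TRAJ22 and 0 added bases. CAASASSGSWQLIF took 4.41% and 3.53% of TRAV14 reads in the Themis+/+ thymus and 4.66% and 4.72% in the Themis-/- thymus. The LN values were 5.38% and 5.55% for Themis+/+ and 7.57% and 7.03% for Themis-/- mice. Both Themis-/- LN libraries were above the other 6, and both Themis+/+ LN libraries were above the 4 thymus libraries. This order was not tested. The share of a family's 10 largest sequences was higher in Themis-/- than in Themis+/+ LN without overlap in 52.9% of 17 V families. It was higher in LN than in thymus in 82.4% of them in Themis-/- and 5.88% in Themis+/+ mice. It was encoded by 15 nucleotide sequences in all, of which the printed one held 83.4% of the reads, and it was listed under 8 of the 9 members. That printed sequence was the largest TRAV14 sequence in 7 of the 8 libraries.

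The second CDR3 differs from the first by T38G, counted from the first base of CDR3, in the germline part of TRAJ22. Of the reads of the 2 printed nucleotide sequences, the second held 26.7% to 38.3% in a library. The same base change at the end of TRAJ22 was found with other V segments, in 21.7% to 26.5% of the reads that had either end, and at the end of TRAJ37 with other V segments in 17.1% to 29.1%. In the remaining TRAV14-TRAJ22 sequences the share was 23.7% to 30.8%, and with TRAV14 and TRAJ37 it was 12.2% to 31.3%. The share in the printed pair was above that of TRAJ22 with other V segments in 8 of 8 libraries. The annotated germline TRAJ22 and TRAJ37 hold only the unchanged end. The origin of the change was not tested.

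Together the pair made up 7.86% ± 2.23 of TRAV14 reads (SD, n = 8) and at most 0.135% of the reads of other V segments in a library. Without the pair TRAJ22 took 5.44% to 9.23% of the remaining TRAV14 reads in 7 libraries, where the other V segments had 6.38% to 7.86%, and TRAV14 was higher in 6 of 8 libraries. The exception in size was the Themis-/- LN library 1, where TRAJ22 still made up 25.1%. There the CDR3 ranked next had 220 reads and the one after it 170, of 1971 TRAV14-TRAJ22 reads in 59 sequences. The public CDR3 with TRAJ12 ranged from 0.0147% to 0.799% of TRAV14 reads, with its 2 added bases printed in capitals above. It was encoded by 6 nucleotide sequences, of which the printed one was read in 6 libraries and held 34.3% of the reads.

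**Figure D3:**
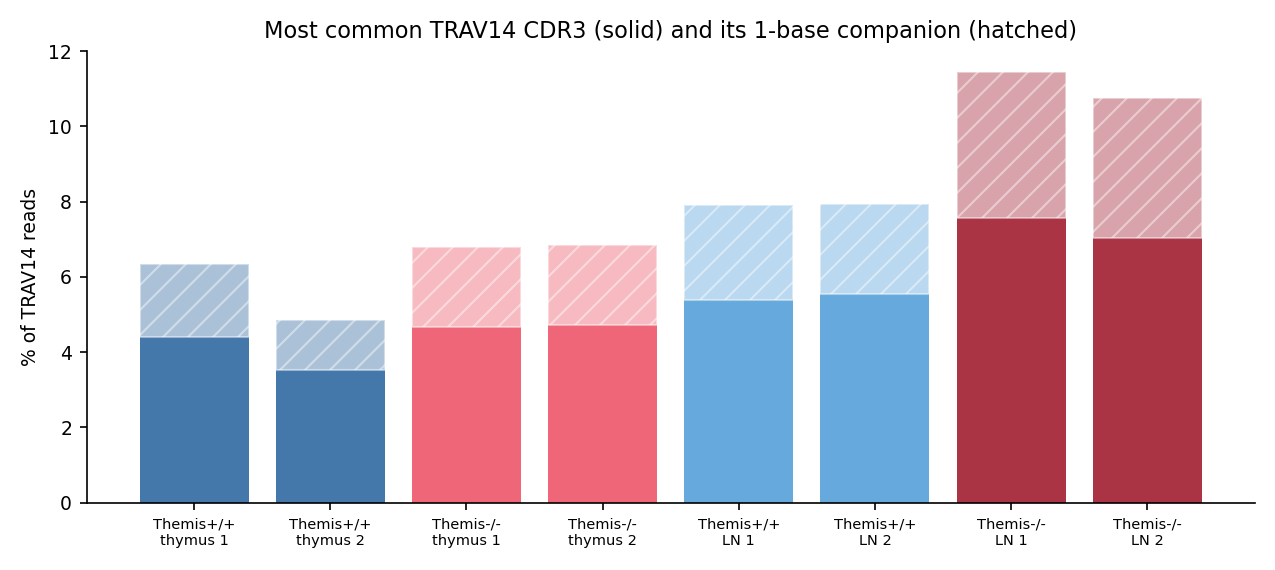
Share of TRAV14 reads (vertical axis, %) of the most common TRAV14 CDR3 (solid) and of the CDR3 that differs from it by 1 base (hatched), stacked, in each of the 8 unsorted libraries. The solid bars run from 3.53% to 7.57% and are highest in the 2 Themis-/- LN libraries, an order that was not tested.

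Of the TRAV14-J pairs, 43 were tested. Called pairs numbered 0 between genotypes in the LN, against 0.144% of all 694 V family and J pairs, 0 in the thymus (0%), 0 between tissues in Themis+/+ mice (0%), 0 in Themis-/- mice (0.432%) and 0 for the difference of the genotype effects (0.144%). At an unadjusted p under 0.05 edgeR gave 2, 0, 0, 3 and 0 of the 43 pairs, against 73, 19, 14, 61 and 36 of all 694. DESeq2 gave 4, 1, 0, 8 and 3 of the TRAV14 pairs, and its counts over all pairs are not given here. With distinct sequences counted in place of reads 0 of 42 pairs were called in each test, where 0.732% of all pairs were called between genotypes in the LN and 0% in the others. The TRAV14-TRAJ22 pair was 0.85 ± 0.38 (log2, SE) higher in Themis-/- than in Themis+/+ LN with an adjusted p of 0.408, and 0.81 ± 0.38 higher in the LN than in the thymus of Themis-/- mice with an adjusted p of 0.529 (edgeR). The first value was 0.42 without the Themis+/+ LN library 2 and 0.50 without the Themis-/- LN library 1, and the second 0.46 without the Themis-/- LN library 1. DESeq2 called 2 pairs, both lower in the LN than in the thymus of Themis-/- mice. These were TRAJ39 (adjusted p = 0.0317), at 2.06% and 2.76% of TRAV14 reads in the thymus and 0.274% and 0.439% in the LN, and TRAJ2 (adjusted p = 0.0301), at 0.556% and 0.861% in the thymus and 0.0171% and 0% in the LN, where 0 of 8879 reads allows a share of up to 0.0338%. Both pairs were named after their values were seen, and the share of all pairs that DESeq2 called is not given here. The count of 2 therefore cannot be read as particular to TRAV14. Without the Themis-/- LN library 2 edgeR called 2 TRAV14-J pairs between genotypes in the LN, 2 between tissues in Themis-/- mice and 1 for the difference of the genotype effects, and without the Themis+/+ thymus library 1 it called 1 between genotypes in the thymus. Each of these fits leaves 1 group with a single library, whose spread is assumed to be that of the other groups. The share of all pairs called in these fits is not given here, so their counts cannot be read as particular to TRAV14 either.

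The mean TRAJ number of TRAV14 sequences was lower in Themis-/- than in Themis+/+ libraries in both tissues, that is, the J segments used lay farther from the V segments. It was 25.2 and 26.6 in the Themis-/- thymus and 27.99 and 33.6 in the Themis+/+ thymus. The LN means were 25.2 and 28.4 for Themis-/- and 31.7 and 28.7 for Themis+/+ mice. The genotypes did not overlap in either tissue, with differences of -4.88 and -3.45 TRAJ numbers, and the exact permutation p was 0.333 in both, the smallest that 2 against 2 libraries allow. The difference in the thymus was -2.09 without the Themis+/+ thymus library 2 and -7.66 without library 1 of that group. In the LN it was -1.84 without the Themis-/- LN library 1 and -1.95 without the Themis+/+ LN library 1. Most V families did the same: of 17 families with at least 20 sequences in every library, 88.2% were lower in Themis-/- without overlap in the thymus and 70.6% in the LN. Between LN and thymus the TRAV14 values overlapped in both genotypes.

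The members differed in their J segments. TRAV14-2 sequences had a mean TRAJ number of 36.7 ± 1.72 and TRAV14-1 sequences of 32.8 ± 2.16 (SD, n = 8). TRAV14N-3 followed with 31.8 ± 3.43, TRAV14D-2 with 29.5 ± 2.89 and TRAV14-3, the member nearest to the J segments, with 28.2 ± 4.04. The lowest were TRAV14D-1 with 26.6 ± 3.69, TRAV14N-1 with 24.9 ± 3.82, TRAV14D-3-DV8 with 22.1 ± 3.69 and TRAV14N-2 with 21.1 ± 3.45. TRAV14D-2 (25.2 to 34.5 over the libraries) and TRAV14N-2 (15.4 to 25.3) have identical bases, so their values belong to names and not to positions. The same holds for TRAV14D-1 and TRAV14N-1. Among members with distinct bases, locus position and mean TRAJ number did not follow one order, since TRAV14-3 was below TRAV14-1 and TRAV14-2. The ranges of TRAV14-2 (33.5 to 39.1) and TRAV14D-3-DV8 (18.4 to 28.1) did not overlap.

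TRAV14 CDR3s were concentrated at 14 residues. Sequences of 42 bases made up 37.4% of TRAV14 sequences (35.2% to 41.9%) and 29.3% of those of other V segments, and were the more frequent with TRAV14 in 8 of 8 libraries. Sequences of 45, 48 and 51 bases were less frequent with TRAV14 in 8 of 8 libraries, at 10.4%, 3.41% and 0.326% against 15.5%, 6.01% and 1.48%. The mean length was 40.3 bases against 40.6, a difference of -0.32 ± 0.23 bases (SD, n = 8 libraries, lower in 7 of 8). It did not pass the test, with an adjusted p of 0.0938 over 6 properties (exact sign-flip permutation test, two-sided), and it was -0.39 with an adjusted p of 0.0469 without the Themis-/- LN library 1 (exact test).

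**Figure D4:**
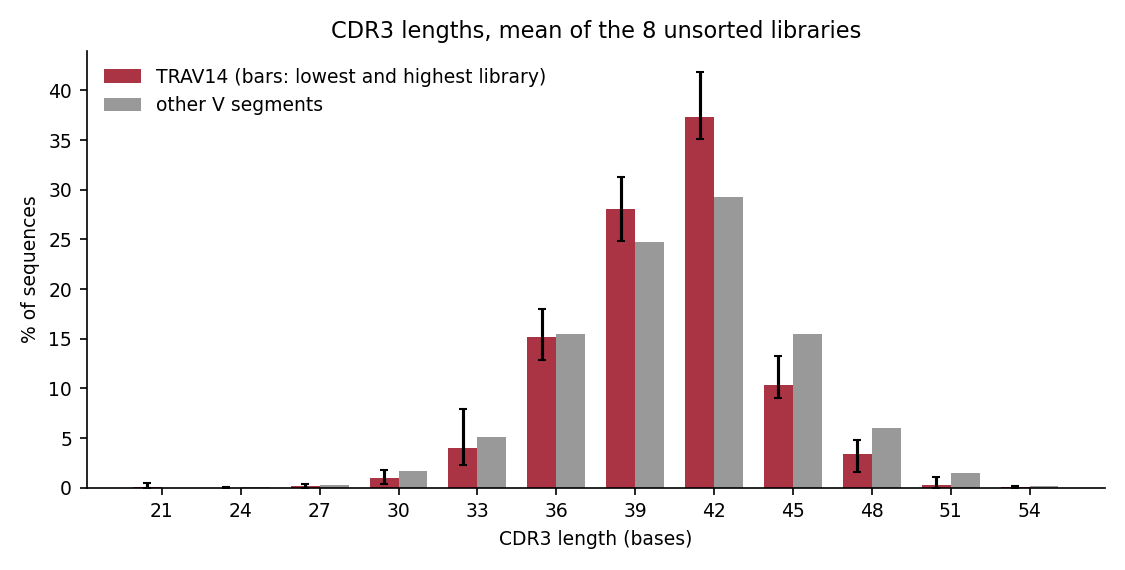
Share of sequences (vertical axis, %) with each CDR3 length in bases (horizontal axis) for TRAV14 and for all other V segments, as means of the 8 unsorted libraries. Lines on the TRAV14 bars run from the lowest to the highest library. At 42 bases TRAV14 stands at 37.4% and the other V segments at 29.3%.

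Between groups the mean length of TRAV14 CDR3s differed by -0.22 to 0.25 bases where groups overlapped and by -0.29 and 0.19 bases where they did not. It was 39.9 and 40.1 bases in the Themis-/- thymus and 40.2 and 40.4 bases in the Themis+/+ thymus, which did not overlap (exact permutation p = 0.333, where 41.2% of the 17 families were lower without overlap). In the LN the values were 40.6 and 39.97 in Themis-/- and 40.4 and 40.5 in Themis+/+ libraries, and they overlapped, while 29.4% of the families were lower and 5.88% higher in Themis-/- libraries without overlap. The Themis+/+ LN libraries lay above the Themis+/+ thymus libraries (exact permutation p = 0.333, with 35.3% of families higher without overlap).

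The residues of 14-residue CDR3s differed from those of other V segments both in the part the V segment encodes and beyond it. Of 129 residue and position combinations tested, 43 (33.3%) passed the exact sign-flip permutation test over libraries, 37 with an adjusted p of 0.0272, which goes with the smallest exact p of 0.00781, and 6 with 0.0469. Of the 43, 14 were more and 29 less frequent with TRAV14. The residues named here had an adjusted p of 0.0272 (exact test). Alanine at position 3 was present in 98.5% ± 0.890 of TRAV14 sequences and 18.04% ± 1.97 of the others, and serine at position 4 in 75.4% ± 4.96 against 42.8% ± 2.46 (SD, n = 8). Both are encoded by the germline V bases printed above, which all members share. A lower share of any other residue at these positions, as named below, goes with that. The tests up to position 4 thus mainly compare germline V segments. At position 5, where V and J are joined, alanine was present in 31.3% ± 5.28 against 15.3% ± 0.869, and aspartate in 5.56% ± 2.76 against 16.8% ± 1.93. Serine was more frequent at position 7 (29.9% ± 4.26 against 22.4% ± 2.37) and at position 9 (16.4% ± 4.18 against 9.22% ± 0.449). Alanine at position 5 and serine at positions 7 and 9 are also residues of the public TRAJ22 CDR3 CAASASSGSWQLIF. Whether these differences are separate from the TRAJ22 excess was not tested. Leucine at position 3, in 39.8% of the other sequences, was in 0 of 3158 TRAV14 sequences, which allows a share of up to 0.0950%, valine there in 0.578% against 22.2%, methionine there in 0 of the 3158 against 10.7%, and glycine at position 4 in 2.12% against 14.1%. Of the 43, 21 lay at positions 5 to 10, where 74 combinations were tested. With 7 libraries the smallest exact p is 0.0156, and 40 to 42 combinations passed without either Themis-/- thymus library or the Themis-/- LN library 1, and 0 passed without any of the other 5. Alanine at position 5 of TRAV14 was highest in the Themis-/- LN libraries, at 38.1% and 36.8%, against 26.4% and 23.3% in Themis+/+ LN, 31.4% and 29.4% in Themis-/- thymus and 29.0% and 35.9% in Themis+/+ thymus. The order of the groups was not tested, and the highest thymus library was near the Themis-/- LN.

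With each sequence counted once, no difference in added bases between TRAV14 and other V segments passed the test. The mean was 2.57 added bases in TRAV14 and 2.58 in other V segments, with a difference of -0.01 ± 0.12 (SD, n = 8) and an adjusted p of 0.781 (exact sign-flip permutation test). With the deposited alignment ends taken as they were, without the cap at the germline ends, the difference was 0.13 (adjusted p = 0.0312, exact test), an alternative chosen after seeing the data. Sequences without added bases made up 20.5% of TRAV14 and 22.5% of other sequences, with a difference of -2.01 ± 2.52 percentage points and an adjusted p of 0.211 (exact test), and of -2.69 and 0.0469 without the Themis-/- LN library 1. Counted by reads the order was the opposite. Of TRAV14 reads 28.6% were in sequences without added bases, against 23.9% of other reads, higher in 8 of 8 libraries by 1.51 to 11.2 percentage points (adjusted p = 0.0234, exact test). The Themis-/- LN libraries were highest with 35.4% and 36.9%, where the other 6 had 24.8% to 28.3%. In other V segments the same libraries were also highest, at 24.18% and 27.38%, where the other 6 had 22.87% to 23.85%. An alternative chosen after seeing the data left the 2 public TRAJ22 CDR3s out of TRAV14 only, while the other V segments kept all their CDR3s. The share by reads was then 22.7% against 23.9% and was higher in 2 of 8 libraries, both of them Themis-/- LN libraries (adjusted p = 0.344, exact test). Since large sequences without added bases were removed from 1 side only, a lower TRAV14 share was fixed beforehand, and the 2 sets are not compared alike.

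Added bases were fewer in Themis-/- than in Themis+/+ TRAV14 sequences in both tissues. The means were 2.56 and 2.46 in the Themis-/- thymus and 2.78 and 2.61 in the Themis+/+ thymus. In the LN they were 2.39 and 2.32 for Themis-/- and 2.55 and 2.89 for Themis+/+ mice. The genotypes did not overlap, with differences of -0.18 in the thymus and -0.37 in the LN, each with an exact permutation p of 0.333. The thymus difference was -0.0977 without the Themis+/+ thymus library 1 and the LN difference -0.20 without the Themis+/+ LN library 2. Of the 17 V families, 58.8% were lower in Themis-/- without overlap in the thymus and 52.9% in the LN. The Themis-/- LN libraries were also below the Themis-/- thymus libraries by 0.16 (p = 0.333, exact), as in 47.1% of the families.

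The number of different TRAV14 sequences was lowest in the Themis-/- LN. At 5007 reads, the TRAV14 total of the smallest library, 421 and 490 sequences remained for the Themis-/- LN and 1084 and 543 for the Themis+/+ LN. The thymus libraries held 1079 and 1043 in Themis-/- and 1403 and 959 in Themis+/+ mice. The Themis-/- LN libraries were below all 6 others, and the Themis+/+ LN library 2 was near them. The exact permutation p was 0.333 for the genotypes in the LN and for LN against thymus in Themis-/- mice, and 76.5% and 100% of the 17 V families were lower without overlap in these 2 comparisons. The mean difference between genotypes in the LN, -358 sequences, was -87.5 without the Themis+/+ LN library 1 and -628 without library 2 of that group. In the thymus the genotypes overlapped. TRAV12 and TRAV6 gave 597 and 723, and 506 and 628 sequences in the Themis-/- LN libraries at the same number of reads.

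The reads were also spread less evenly there. The 10 largest TRAV14 sequences held 23.6% and 23.2% of TRAV14 reads in the Themis-/- LN, 14.6% and 19.0% in the Themis+/+ LN, 11.5% and 15.4% in the Themis-/- thymus and 8.43% and 10.2% in the Themis+/+ thymus. The Themis-/- LN libraries were above the others, as between genotypes in the LN in 52.9% of the 17 V families and between tissues of Themis-/- mice in 82.4%. The mean reads per sequence were 13.5 and 16.3 in the Themis-/- LN and 7.63 to 10.9 elsewhere. In the other V segments they were 15.5 and 14.8 in the Themis-/- LN and 7.47 to 12.05 elsewhere, and of the 17 V families 88.2% were higher in Themis-/- than in Themis+/+ LN without overlap. The mean of TRAV14 was 11.05 over the 8 libraries against 11.2 for other V segments (adjusted p = 0.781, exact sign-flip permutation test). Sequences seen in 1 read were 17.2% of TRAV14 and 18.04% of other sequences (adjusted p = 0.457, exact test).

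**Figure D5:**
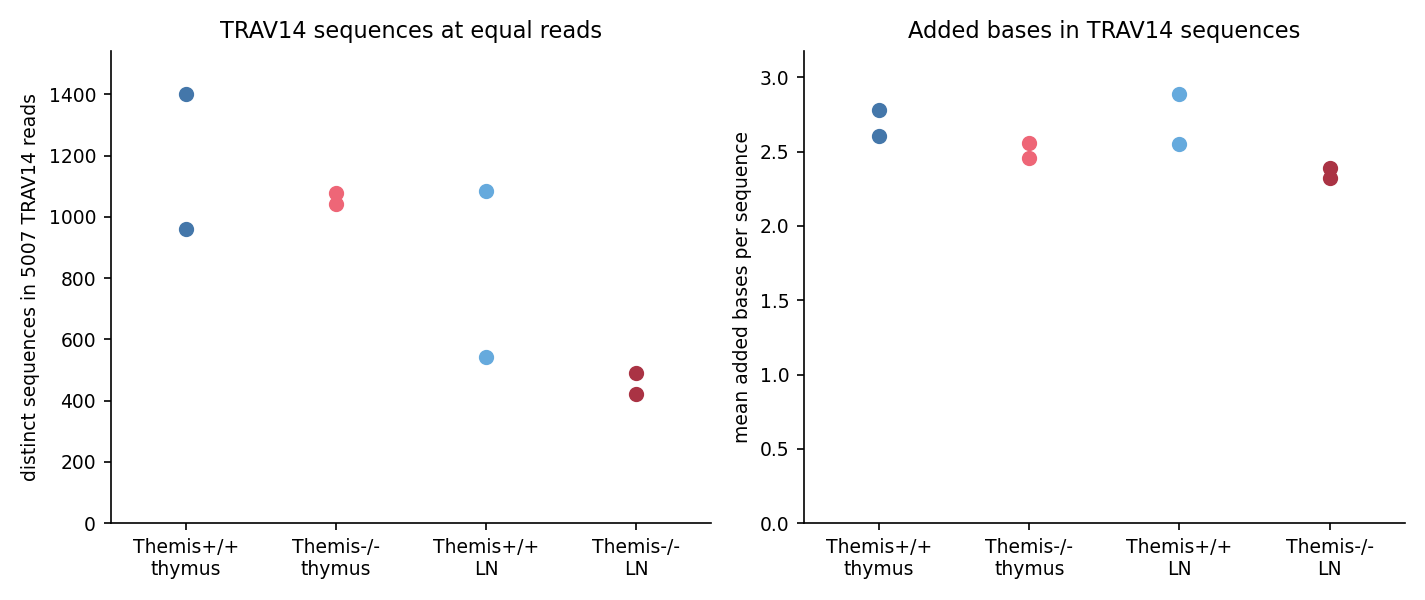
Left, distinct TRAV14 sequences expected in 5007 TRAV14 reads of each library. Right, mean added bases per TRAV14 sequence. Each point is 1 of the 8 unsorted libraries, by genotype and tissue, on axes that start at 0. The 2 Themis-/- LN libraries are lowest in both, at 421 and 490 sequences and at 2.39 and 2.32 bases.

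Libraries shared few TRAV14 sequences. Pairs of libraries of the same group had 22 to 97 nucleotide sequences in common and other pairs 20 to 122. For the 2 Themis-/- LN libraries the 22 shared sequences were 5.09% and 4.04% of their TRAV14 sequences but held 12.9% and 17.1% of their TRAV14 reads. Of 18 tests of a member's CDR3 length or added bases against the rest of the family, 0 passed and 2 had an unadjusted p under 0.05 (exact sign-flip permutation tests). The lowest adjusted p, 0.141, belonged to TRAV14-1, whose sequences had 0.53 ± 0.36 more added bases than the rest (SD, higher in 8 of 8 libraries). The smallest p of the exact test over 8 libraries, 0.00781, gives 0.141 when 1 of 18 tests reaches it, so no single member could pass alone and the count of 0 says nothing of a difference. Weighted by reads 3 of the 18 passed.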

How the data were processed

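The authors sorted the cells, made TCRα cDNA by template switching (5′ RACE) and amplified it with a constant-region primer, so that V segments were not primed individually. Sequencing was on a MiSeq, and clonotypes were assigned by MiXCR, whose version is not stated. The submitters' processing notes name CASAVA 1.4 and mm9. The authors deposited for each CDR3 nucleotide sequence its read count, not normalized, and its fraction of the library's reads, which equalled count over total. No stop codon or frameshift remained in the tables, and PCR errors in abundant clones can remain as separate sequences.

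The V member was the first listed hit. Added bases were those between the germline V and J ends, taken from the deposited alignment ends and capped at the germline ends. Reads per V segment, V family and V family-J pair were tested over the 8 unsorted libraries with edgeR 4.0.16 (quasi-likelihood test, TMM, at least 10 reads in at least 2 libraries, Benjamini-Hochberg over all rows, threshold 0.05), with DESeq2 1.42.0 as an alternative. TRAV14 was compared with other V segments within each library by two-sided exact sign-flip permutation tests over 8 libraries (smallest p 0.00781), and groups by exact permutation tests of 2 against 2 (smallest p 0.333). The 8 differences may not be independent, since libraries of the same number may come from the same mice. Averaged over tissues within genotype and number, 4 values remain, and their exact test cannot go below p = 0.125. Residues were tested where their mean share was at least 1%. Richness is the expected number of sequences at 5007 reads. The libraries held 57455 to 146191 reads. Scripts were tested on simulated data. R 4.3.3 ran the models. Tables and exact tests used scipy 1.17.1, pandas 2.3.3 and numpy 2.4.6 under Python 3.11.15, and plots matplotlib 3.10.9. Germline sequences and positions came from GENCODE M21 on GRCm38.

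The members and lists were chosen with earlier results of these data known. Named were every member, the 5 most used J segments, up to 3 TRAV14-J pairs called in each direction, the 3 CDR3s with the highest mean share found in all 8 libraries, each library's largest TRAV14 sequence, the 5 residues that differed most in each direction, and TRAV12 and TRAV6. Alternatives covered normalization, filter, unit counted, tied V hits, single reads, weighting, depth, the comparison set and each library left out. The sorted libraries enter only the closing section.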

Additional observations from a re-analysis of the deposited data

Results flagged for a closer look

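TRAV14 reads appeared in sorted Vα3.2 libraries, which the comparisons above do not use and in which another V family was selected. In 2 of the 8 sorted libraries they exceeded the limit that a count of 0 allows, taken as 3 counts per library. The sorted Themis+/+ thymus library 1 had 5 TRAV14 reads of 11674 (0.0428%) in 1 sequence, and library 2 had 4 of 18191 (0.0220%) in 2 sequences. The other 6 sorted libraries had 0 to 3 TRAV14 reads. None of these sequences was found in the unsorted libraries of the same genotype and tissue, and their source was not tested.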

How the results depend on the processing

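With 2 libraries a group, small differences cannot be seen: the intervals of the family's log2 fold changes reach from -0.61 to 0.43. The labels do not say whether same-numbered libraries share mice. Correlations of their deviations, from -0.20 to 0.02 over 114 segments, cannot settle this with 2 libraries a group. With a replicate block 0 TRAV14 members and 0 TRAV14-J pairs were called in any test. The family values were then -0.11 and 0.00 between genotypes in LN and thymus. No family or member value passed the test under any alternative. The family value between genotypes in the thymus, 0.00 as reported, was 0.0486 with RLE size factors, 0.0486 with DESeq2, 0.0475 without the low-count filter, 0.0329 with the 2 groups alone and 0.0337 with distinct sequences. Leaving out 1 library at a time, the family values ran from -0.18 to 0.13 (genotypes, LN), -0.00277 to 0.10 (genotypes, thymus), -0.31 to 0.0498 (tissues, Themis+/+), -0.37 to 0.0250 (tissues, Themis-/-) and -0.28 to 0.13 (difference of effects), so their directions rest on single libraries. TRAV14N-1 ran from -1.40 to 0.0366 for the difference of effects. Called TRAV14-J pairs ran from 0 to 2 between genotypes in the LN, 0 to 1 in the thymus, 0 to 2 between tissues in Themis-/- mice and 0 to 1 for the difference of effects. A group reduced to 1 library is assumed to vary like the others. The higher counts came without the Themis-/- LN library 2, and in the thymus without the Themis+/+ thymus library 1. DESeq2 called 2 pairs between tissues in Themis-/- mice. The shares of all pairs called by DESeq2 and in the fits without 1 library are not given here. These counts therefore cannot be read as particular to TRAV14. Against other V segments, the difference in added bases was -0.23 by reads (adjusted p = 0.0234, exact test), 8.86e-05 without single-read sequences, 0.13 with the deposited ends, 0.00572 without sequences 1 base from a larger one and 0.00313 without the 2 public CDR3s, and ran from -0.0404 to 0.00330 over libraries left out. The share without added bases differed by 4.63 points by reads and -3.16 with the deposited ends (adjusted p = 0.0312, exact test), and ran from -2.69 to -1.62 over libraries left out. CDR3 length differed by -0.40 bases by reads without the 2 public CDR3s (adjusted p = 0.0469, exact test) and ran from -0.39 (past the test, without the Themis-/- LN library 1) to -0.28. Against TRAV12 and TRAV6 alone the mean TRAJ number differed by 0.74 and reads per sequence by -1.66 (adjusted p = 0.0469, exact test), and reads per sequence against all other V segments ran from -0.40 to 0.10 over libraries left out. Residues that passed numbered 25 at 13 residues and 0 to 42 over libraries left out, with 0 without either Themis+/+ thymus library, either Themis+/+ LN library or the Themis-/- LN library 2. 7 libraries cannot go below p = 0.0156 in the exact test. By reads the length differences were -0.16 (genotypes, thymus) and 0.0772 (tissues, Themis+/+), that of added bases between tissues in Themis-/- mice -0.23, and 3 of 18 member tests passed. The cause of these changes was not tested beyond this. The alternatives with 1-base neighbours, the deposited ends and the 2 public CDR3s left out were chosen after seeing the data. In the comparisons of this section the 2 public CDR3s were left out of TRAV14 only.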
